A study of Homo sapiens with 9 samples.

Results

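Mitosis and spindle checkpoint genes are the 46 genes described here, out of 34961 in the deposited table of a human stem cell line on its way to serotonin neurons. They were chosen by symbol, as a list that runs from the transcription factors of late cell cycle genes through the kinases, checkpoint and kinetochore proteins to the proteins of cell division itself. DNA replication genes are not among them, nor are kinesins other than CENPE. Each of the 46 was found once in the table, and each passed the filter on low counts together with 20156 genes in all.

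The cells were WA09, an established line of human embryonic stem cells also known as H9. Every library, Day0 included, carried the TPH2-EGFP knockin, a green fluorescent reporter placed at the gene for the neuronal serotonin-synthesis enzyme TPH2, and every library has the same label for its treatment, the induction of serotonin neurons. There were 3 libraries of total RNA per day: hESCs on Day0, neural progenitor cells by their label on Day21, and TPH2+ serotonin neurons by theirs on Day42. The labels do not say whether the line is 1 clone, whether the replicates of a day came from separate differentiations, or how TPH2+ cells were obtained on Day42. The p-values therefore reflect only how far libraries of the same day lie from each other, and that spread may be technical. The main fit takes the 9 libraries together, so the spread within Day42 also enters the test of Day21 against Day0.

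A dividing cell enters mitosis when the kinase CDK1, bound to cyclin A or B, becomes active. Kinetochores, built on the centromere histone CENPA, then attach chromosomes to the spindle, and the spindle checkpoint (BUB1, BUB1B, BUB3, MAD2L1 and the kinase TTK) holds back the anaphase-promoting complex and its activator CDC20 until all are attached. Most of these genes are transcribed late in the cell cycle, when MYBL2 and FOXM1 join the MuvB complex at a promoter element called the cell cycle genes homology region. They are kept low in resting and postmitotic cells such as neurons, and MKI67, BUB1 and PBK are widely used to mark dividing cells. The libraries are bulk samples, in which fewer dividing cells and less of a transcript per cell cannot be told apart.

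Libraries held between 58526466 and 69658328 counts. The Day42 libraries stood apart, with 16077, 17101 and 10797 genes above 0 in replicates 1, 2 and 3, against 22198 to 24741 on the earlier days, and replicate 3 correlated with the other Day42 libraries at only 0.668 and 0.666 (Pearson, log2 level across genes, which are not independent replicates). Their counts from ribosomal protein genes, 1.72% to 2.11% of the total, were also lower than the 6.21% to 9.99% before, as were mitochondrial counts, at 2.65% to 2.94% against 6.13% to 10.6%. Levels are given as CPM, counts scaled by library total and TMM factor, with the mean ± SD of a day's 3 libraries, and changes as log2 fold change ± SE. Because counts pile up at multiples of 4, a library's limit for a count of 0 was taken as 12 counts, which covers counting error only. Sums of stem cell, neuron and serotonin neuron markers went with the labels, and those of progenitor markers did so in part. The labels name no mesenchyme, but the sums of its markers were higher on Day21 and Day42 than on Day0. All 5 stem cell markers were above that limit on Day0 (978 to 1705 CPM summed) and 0 of 5 on Day42, with NANOG and TDGF1 at 0 counts in each Day42 library. The summed level of the 7 neuron markers was 40.6 to 119 CPM on Day0, then 563 to 908 CPM on Day21 and, on Day42, 4173 to 5214 CPM. Of 6 serotonin neuron markers, 5 were above the limit on Day42 (1004 to 1280 CPM summed), while the transporter SLC6A4 had 0 counts in each Day42 library. Progenitor markers summed to 277 to 363 CPM on Day0, then 1282 to 1436 CPM, and still 292 to 450.1 CPM on Day42. Of these 7 markers, 5, 5 and 1 were above the limit in Day42 replicates 1, 2 and 3. The highest Day42 sum, that of replicate 3, thus came almost wholly from 1 marker. Mesenchyme markers summed to 10.8 to 18.6 CPM on Day0, 576 to 628 CPM in the libraries labelled as progenitors, and 123 to 157 CPM on Day42. Glia markers never passed 32.3 CPM summed, and GFAP and AQP4 had 0 counts on Day42. The part of these shifts in the results below was not tested.

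In sum the 46 genes were at similar levels on Day0 and Day21 and far lower on Day42, with exceptions given below. Leaving out BUB3, their sum was 5245 ± 553 CPM on Day0 and 5473 ± 412.5 CPM on Day21 but 141 ± 36.0 CPM on Day42. With BUB3, the libraries summed to 5945, 6807 and 5084 CPM on Day0 and 5274, 5872 and 6294 CPM on Day21. Those of Day42 then summed to 531.6, 361.3 and 421.7 CPM. All 46 were above 12 counts in each Day0 and Day21 library. On Day42, 22, 21 and 27 of the 46 had 0 counts in replicates 1, 2 and 3, and 20, 17 and 6 were above 12 counts. Among all genes tested, 65.8%, 69.8% and 39.8% were above 12 counts in the same libraries, so replicate 3 was the poorest in detected genes overall as well. All 46 had at least 10 counts in each Day0 and Day21 library and only 3 of 46 did in each Day42 library, so most passed the filter through the earlier days, and the counts of lower genes on Day42 are read only against the same share over all tested genes.

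**Figure D1:**
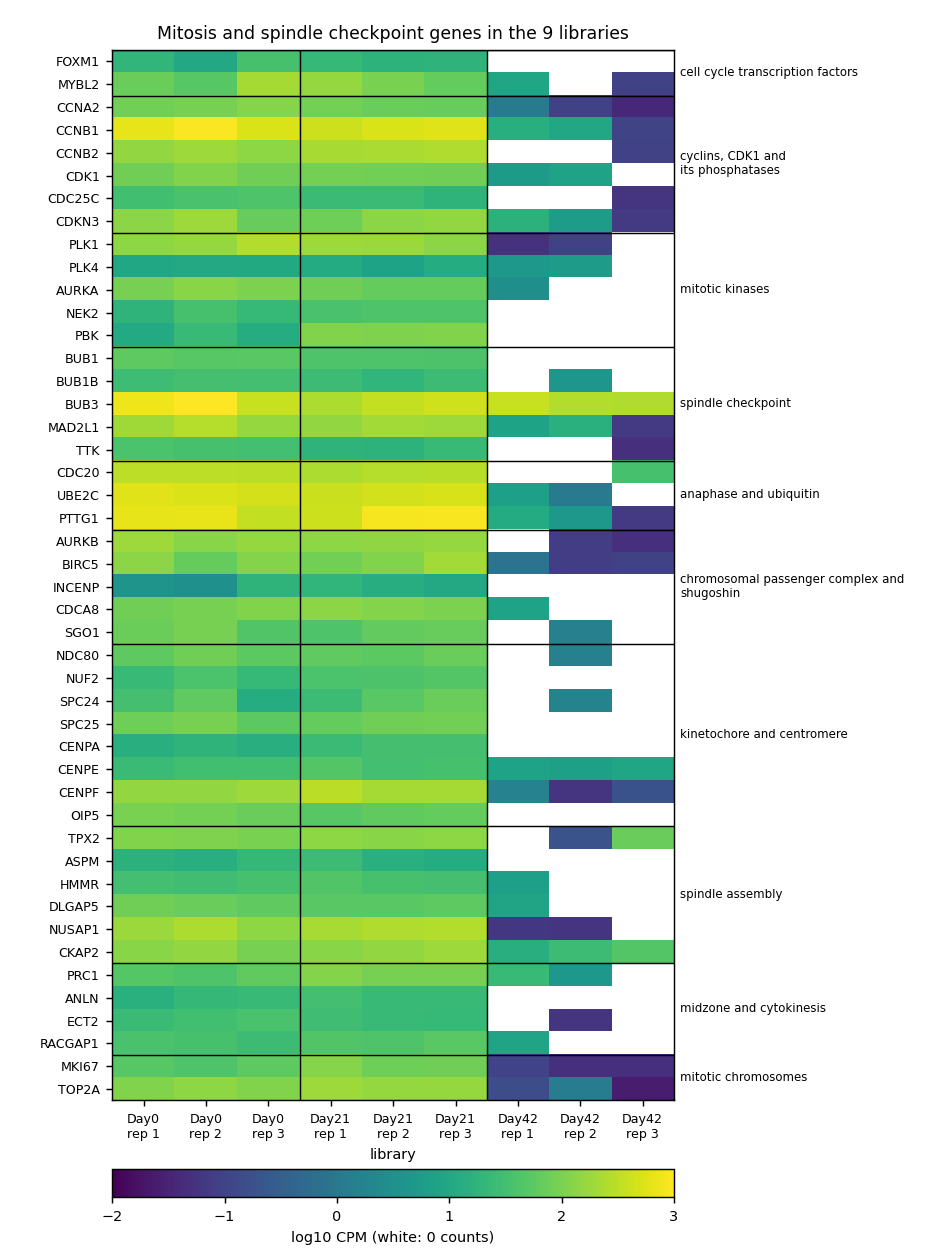
Level of each of the 46 genes (rows, grouped by role) in each of the 9 libraries (columns), as log10 CPM on a colour scale, with white for 0 counts. Day0 and Day21 columns are filled in every row, whereas the Day42 columns are mostly white or dark, with BUB3, CKAP2 and CENPE the rows above 12 counts in all 3 Day42 libraries.

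Many of the promoters searched held 1 or both of 2 sequence features that the choice by symbol did not use. RefSeq (GRCh38.p14) gave a start for 37 of the 46 genes, and the 250 bases before it were searched on both strands for the core of the homology region, TTTGAA or TTCGAA, and for the CCAAT box. A gene with several starts counted where any of them held a match, here and in the 27305 genes used for comparison. The core was found in 19 of 37 genes (51.4%) against 17.2% of all genes, and within the last 50 bases in 12 of 37 (32.4%) against 3.06%. CCAAT was found in 30 of 37 (81.1%) against 37.0%, and at least 2 copies of it in 23 of 37 (62.2%) against 11.5%. Both motifs were found, at the same start or at different starts of a gene, in 17 of 37 (45.9%) against 7.38%. A match is a run of letters and not a measured binding site. The 2 motifs can share bases, as they do at MKI67. In 41 of the 46 windows of these genes, the 150 bases before the RefSeq start overlap a GENCODE exon.

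MKI67 and CENPF show the arrangement in the 150 bases before the start, where no GENCODE exon is annotated. In each, the capitals mark the core (TTTGAA) and CCAAT or its reverse complement ATTGG, read 5′ to 3′ along the gene's strand.
MKI67 (chr10:128126424-128126573, minus strand): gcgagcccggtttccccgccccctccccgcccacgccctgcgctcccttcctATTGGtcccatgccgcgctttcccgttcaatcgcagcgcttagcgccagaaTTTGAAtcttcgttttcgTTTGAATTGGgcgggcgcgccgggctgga
CENPF (chr1:214603045-214603194, plus strand): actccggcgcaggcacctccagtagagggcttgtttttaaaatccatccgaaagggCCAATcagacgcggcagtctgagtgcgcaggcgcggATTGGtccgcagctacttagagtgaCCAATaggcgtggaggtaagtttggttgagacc

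MKI67 has the core at −47 and −29, and CENPF has 3 CCAAT boxes but no core. CCNB2 has CCAAT at −120, −87 and −54 and the core at −29, the same position as in MKI67 and PLK1. These positions hold for the RefSeq start only. The GENCODE gene begins upstream of that start for CCNB2 and PLK1 and downstream of it for MKI67. The core in 7 further promoters, with 30 bases shown and the core in capitals, is set beside that of CCNB2 to show where it lies in genes that work at different stages of mitosis. They were picked for holding the core, so its letters are alike by choice. CDK1, HMMR and INCENP also held it in the last 50 bases.
CCNB2 (chr15:59105105-59105134, plus strand): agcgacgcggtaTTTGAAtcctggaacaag
PLK1 (chr16:23678848-23678877, plus strand): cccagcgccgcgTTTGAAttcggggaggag
CDC25C (chr5:138331817-138331846, minus strand): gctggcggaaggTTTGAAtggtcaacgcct
CDCA8 (chr1:37692481-37692510, plus strand): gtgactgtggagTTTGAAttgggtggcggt
BUB1B (chr15:40161034-40161063, plus strand): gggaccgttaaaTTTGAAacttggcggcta
CENPA (chr2:26786026-26786055, plus strand): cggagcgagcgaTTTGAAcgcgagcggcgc
ANLN (chr7:36389830-36389859, plus strand): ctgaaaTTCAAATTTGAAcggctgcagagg
PRC1 (chr15:90994538-90994567, minus strand): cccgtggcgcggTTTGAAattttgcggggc

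CENPE, CKAP2, MYBL2, NDC80 and NUF2 had neither motif in the 250 bases. Of the CENPE window, the stretch before an annotated exon is shown and holds no capital.
CENPE (chr4:103198410-103198493, minus strand): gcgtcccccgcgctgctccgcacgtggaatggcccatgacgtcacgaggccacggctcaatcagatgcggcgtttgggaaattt

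**Figure D2:**
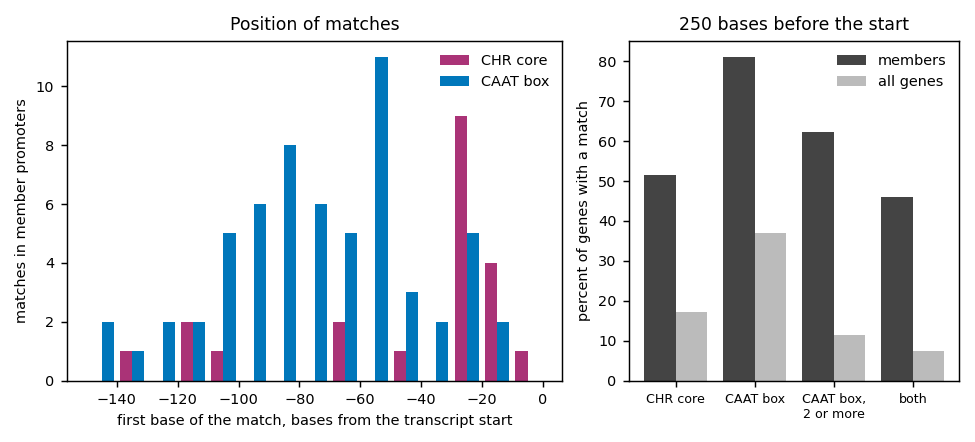
Left, the number of motif matches in the promoters of the genes (y axis) by position in the 150 bases before the start (x axis, first base of the match, in bins of 10 bases; CHR core is TTTGAA or TTCGAA and CAAT box is CCAAT), and right, the percent of genes with a match in the 250 bases before the start among the 37 genes and among all 27305 genes. Core matches gather between −30 and −10 and CCAAT matches lie mostly farther upstream, and each of the 4 shares is higher among the 37 genes.

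Day21 was set against Day0 to see how progenitors differ from stem cells in these genes. edgeR called 1 of the 46 higher and 0 lower, at an adjusted p under 0.05 and a log2 fold change of at least 1, where 1.32% of all tested genes were called higher and 1.18% lower. Their median change was 0.06, with 24 above 0 and 22 below, beside 0.03 over all tested genes. Libraries of the 2 days did not overlap for 12 genes that were higher and 8 that were lower on Day21, shares near those over all genes, 24.7% and 22.2%. At an unadjusted p under 0.05 edgeR had 2 genes higher and 1 lower, beside 1617 higher and 1781 lower of all 20156 tested genes. DESeq2 called 1 higher and 0 lower, where it called 6.89% and 7.75% of all genes. An edgeR model of the Day0 and Day21 libraries alone called 2 higher (13.0% of all genes) and 0 lower (12.6%).

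PBK, a kinase of the mitotic spindle that is made mostly in dividing and germ cells, was the gene that rose. It had 11.6, 24.6 and 12.7 CPM in Day0 replicates 1, 2 and 3 and 111, 108 and 111 CPM in those of Day21. The 3 Day21 libraries were nearly equal and all far above the Day0 libraries, of which replicate 2 was the highest. PBK rose by 2.75 ± 0.45 (16.3 ± 7.21 to 110.0 ± 2.05 CPM, n = 3 each, edgeR adjusted p = 0.0346). The call was lost with no count filter and with a replicate block (edgeR adjusted p = 0.0598 and 0.199) and without any 1 Day0 or Day21 library (edgeR adjusted p = 0.188, 0.0608 and 0.136 without Day0 replicates 1, 2 and 3, and 0.166, 0.171 and 0.168 without those of Day21), while the change itself stayed between 2.56 and 3.18 in the 17 alternatives, over which the adjusted p ran from 5.94e-09 to 0.199.

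MKI67, which coats mitotic chromosomes and keeps them apart, had 51.1, 42.4 and 57.7 CPM on Day0 and 126, 78.0 and 83.6 CPM on Day21. All 3 Day21 libraries were above all Day0 libraries, with replicate 1 the highest. The difference of 0.93 ± 0.39 did not pass (50.4 ± 7.69 against 95.9 ± 26.3 CPM, edgeR adjusted p = 0.272). BUB1, the checkpoint kinase at kinetochores, leaned the other way, with 58.6, 50.1 and 52.4 CPM on Day0 and 42.1, 41.4 and 40.4 CPM on Day21. Its days did not overlap either, and its difference of −0.38 ± 0.36 did not pass (edgeR adjusted p = 0.778). CENPA and the midzone protein PRC1, chosen after their values were seen, had the next largest differences above 0, 1.03 ± 0.49 (15.1 ± 2.45 against 30.9 ± 4.68 CPM) and 1.00 ± 1.53 (50.9 ± 9.45 against 102 ± 12.4 CPM). CENPA did not pass with all libraries (edgeR adjusted p = 0.383) and did when Day0 and Day21 were fitted alone (edgeR adjusted p = 0.0144, 0.000799 to 0.738 over its alternatives). PRC1, whose days did not overlap, did not pass with all libraries (edgeR adjusted p = 0.92). With Day0 and Day21 fitted alone its change was 0.9905 (edgeR adjusted p = 0.0118), just under the fold set for a call. Reads of CENPA could be shared with the overlapping gene SLC35F6 and those of PRC1 with AC068831.7. Below 0, BUB3 and TTK, also chosen after their values were seen, had the largest differences, −1.04 ± 0.38 and −0.83 ± 0.93. Neither passed (edgeR adjusted p = 0.194 and 0.837). BUB3 was the 1 gene lower at an unadjusted p under 0.05. For TTK the adjusted p was 0.0237 with Day0 and Day21 fitted alone (edgeR) and 0.00521 with DESeq2, at changes under the fold set for a call. All 5 spindle checkpoint genes leaned lower, 3 without overlap of the days.

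Levels compared between genes need a length correction, so FPKM, fragments per length of transcript and depth of library, is used for the order. UBE2C, PTTG1 and CCNB1 held the top 3 places on both days. UBE2C, the ubiquitin-conjugating enzyme of the anaphase-promoting complex, had 284.5 FPKM on Day0 and 247 FPKM on Day21. PTTG1, the securin that guards separase, had 193 and 259 FPKM, and CCNB1, cyclin B1, had 199.5 and 147 FPKM. ASPM, a spindle pole protein that matters for brain size, was the lowest of the 46 on both days, with 1.10 and 1.23 FPKM.

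The comparison of Day42 with Day21 asked what became of these genes in the cells labelled as neurons. edgeR called 31 of the 46 lower and 0 higher, where 19.7% of all tested genes were called lower and 6.52% higher. For 45 of the 46 genes each Day42 library was below each Day21 library, against 34.7% of all genes, and BUB3 was the exception. The median change of the 46 was −7.49, or −6.99 with genes at or under 12 counts in every Day42 library placed at their least fall, against −0.54 and −0.31 over all tested genes. At an unadjusted p under 0.05 edgeR had 37 lower and 0 higher, beside 5348 lower and 2099 higher of all 20156 tested genes. DESeq2 called 30 lower and 0 higher, where it called 25.3% and 10.5% of all genes. An edgeR model of these 2 days alone called 28 lower (16.2% of all genes) and 0 higher (5.81%). Leaving out 1 library gave 28 to 38 lower, with 28 without any 1 Day0 or Day21 library and 37, 33 and 38 without Day42 replicates 1, 2 and 3. Shares over all genes in these fits are not given here, so these counts show only how the calls depend on single libraries.

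Against Day0, edgeR called 34 of the 46 lower and 0 higher on Day42 (23.4% and 8.82% of all tested genes), and all 46 had Day42 libraries below each Day0 library (34.1% of all genes). The median change was −7.81, or −6.84 with genes under the limit at their least fall (−0.57 and −0.35 over all genes). At an unadjusted p under 0.05 edgeR had 38 lower and 0 higher, beside 5873 lower and 2559 higher of all 20156 tested genes. DESeq2 called 31 lower and 0 higher (28.2% and 13.0% of all genes). An edgeR model of the Day0 and Day42 libraries alone called 27 lower (18.5%) and 0 higher (6.89%). The 2 Day42 comparisons share the Day42 libraries, so their values are given side by side. The 31 genes called against Day21 were also called against Day0, where AURKA, BUB3 and CDKN3 were called in addition. The 12 genes called in neither were BUB1B, CDC20, CDCA8, CDK1, DLGAP5, HMMR, MYBL2, PLK4, PRC1, RACGAP1, SPC24 and TPX2. Each of these 12 had 0 counts in at least 1 Day42 library and more than 12 in another.

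**Figure D3:**
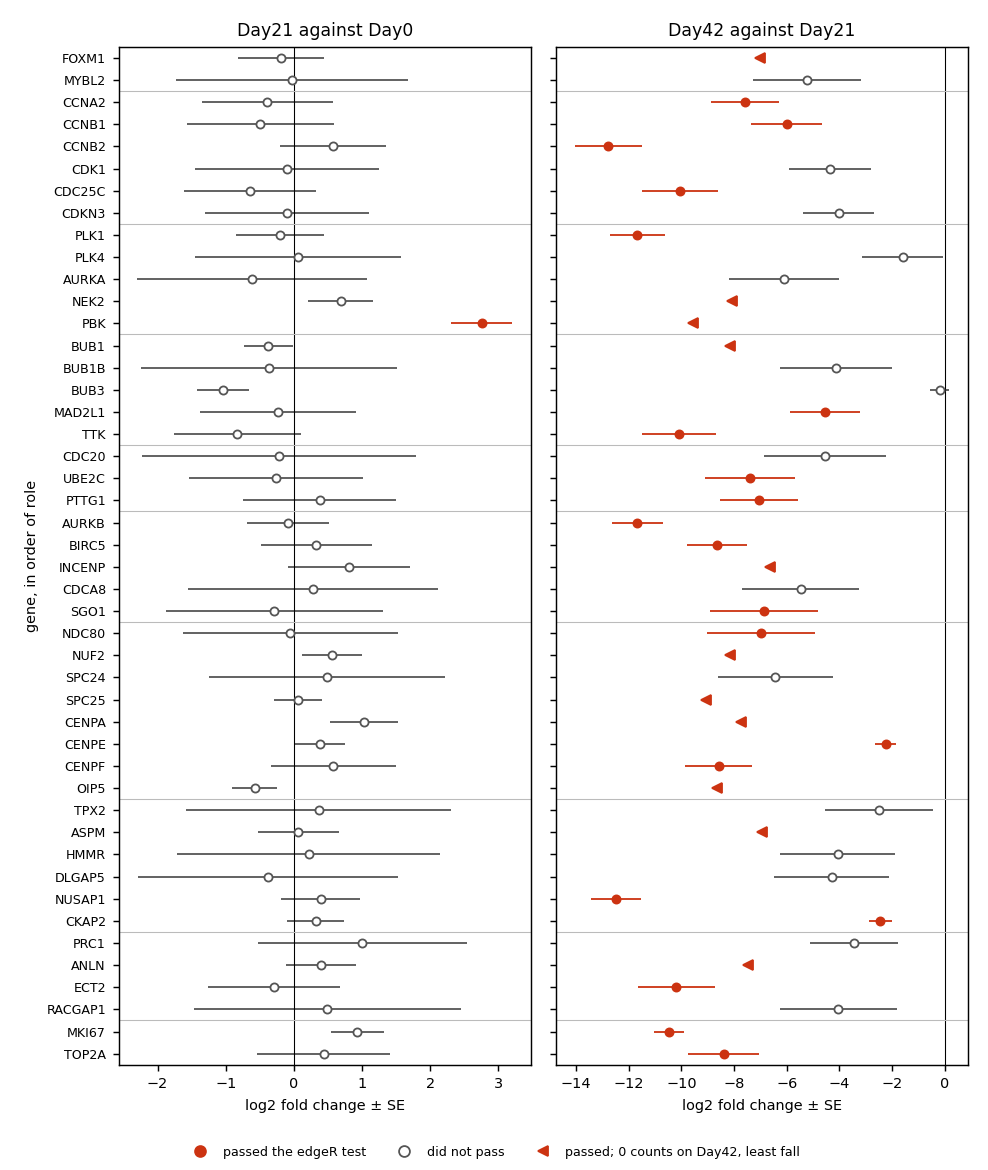
Log2 fold change ± SE of each gene (rows, in order of role) on Day21 against Day0 (left) and on Day42 against Day21 (right), from the edgeR fit to 9 libraries. Filled points passed the edgeR test, open points did not, and triangles stand at the least fall of the 11 genes with 0 counts in each Day42 library. For CCNB2, CDC25C, PLK1, TTK, AURKB, NUSAP1, ECT2 and MKI67, under the limit on Day42, the points on the right are fitted values and not bounds. On the left the points scatter around 0 with PBK alone filled, and on the right all lie below 0.

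The transcription factors split. FOXM1, which switches on late cell cycle genes, had 22.0, 16.8 and 17.6 CPM on Day21 and 0 counts in each Day42 library, at least 129-fold lower (edgeR adjusted p = 0.000839), and at least 147-fold lower than on Day0 (edgeR adjusted p = 0.000539). Its Day0 libraries, 19.6, 10.4 and 34.4 CPM, overlapped those of Day21. MYBL2, the MuvB partner that comes on at the start of DNA synthesis, had 163, 99.1 and 67.0 CPM on Day21 and 8.71, 0 and 0.0949 CPM on Day42. Replicate 1 alone kept 7.93% of the Day21 mean, and the change of −5.23 ± 2.04 did not pass (edgeR adjusted p = 0.0975). It passed without Day42 replicate 1 (edgeR adjusted p = 0.00401).

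Of the 6 cyclins, CDK1 and its phosphatases, 4 fell from Day21 to Day42 and 5 from Day0. CCNB2, cyclin B2, had 223, 236 and 256 CPM on Day21 and raw counts of 0, 0 and 8 on Day42, all under the limit. From a Day21 mean of 238 ± 16.9 CPM it was at least 1633-fold lower (edgeR adjusted p = 0.00063), a bound set, as for each gene at or under 12 counts in every Day42 library, against that limit. CCNA2, CCNB1 and CDC25C, the phosphatase that activates CDK1, fell as well. CDKN3, a phosphatase that acts on CDK proteins, changed least, with 78.8, 134 and 152 CPM on Day21 and 16.3, 5.92 and 0.0712 CPM on Day42. Its 3 Day42 libraries were all lower but spread over more than 2 orders of magnitude, and its change of −4.03 ± 1.36 did not pass (edgeR adjusted p = 0.0594). Against Day0 it fell by 4.13 ± 1.37 (edgeR adjusted p = 0.0479), a call lost without any 1 Day0 or Day21 library or Day42 replicate 2, with an edgeR adjusted p of 0.0747 to 0.11. That call was also lost with Day0 and Day42 fitted alone (edgeR adjusted p = 0.12) and with the replicate block. CDK1 itself had 5.28, 7.44 and 0 CPM on Day42, 4.91% of its Day21 mean, and did not pass (edgeR adjusted p = 0.072), although it did without Day42 replicate 3 (edgeR adjusted p = 0.000187).

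Of the 5 mitotic kinases, 3 fell from Day21 and 4 from Day0. PBK was at 0 counts in each Day42 library, at least 754-fold below Day21 and at least 112-fold below Day0 (edgeR adjusted p = 0.000242 and 0.000177). NEK2, a centrosome kinase, was also at 0 throughout Day42, at least 274-fold below Day21. PLK1, which acts from mitotic entry to cytokinesis, went from 165 ± 27.1 CPM to raw counts of 4, 8 and 0, at least 1132-fold lower (edgeR adjusted p = 0.000362). PLK4, the kinase of centriole duplication, was the exception, with 11.8, 7.98 and 12.3 CPM on Day21 and 4.71, 5.86 and 0 CPM on Day42. Replicates 1 and 2 kept 44.1% and 54.8% of the Day21 mean while replicate 3 had none. The change of −1.60 ± 1.55 did not pass (edgeR adjusted p = 0.534), nor did it under any of the 17 alternatives (adjusted p from 0.0737 to 0.694). AURKA, the spindle pole kinase, had raw counts of 243, 0 and 0 on Day42 and passed against Day0 alone (edgeR adjusted p = 0.0432, and 0.0636 against Day21). In Day42 replicate 2, where AURKA had 0 counts, its near copy AURKAP1 had 225, against 1 to 66 in the Day0 and Day21 libraries, so reads may be split between the 2 genes. The Day0 call was lost without any 1 Day0 or Day21 library (edgeR adjusted p from 0.0758 to 0.0905), and the change of −6.71 was −15.75 without Day42 replicate 1. That call was also lost with Day0 and Day42 fitted alone (edgeR adjusted p = 0.123) and with the replicate block.

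Of the 5 spindle checkpoint genes, 3 fell from Day21. BUB1, at 41.3 ± 0.895 CPM on Day21, had 0 counts in each Day42 library, at least 283-fold lower than on Day21 and at least 368-fold lower than on Day0 (edgeR adjusted p = 0.000177 and 0.000102). TTK, the kinase that starts the checkpoint, had raw counts of 0, 0 and 4 on Day42, at least 134-fold lower than on Day21 (edgeR adjusted p = 0.00211). MAD2L1, which binds CDC20, had 7.80, 15.0 and 0.0712 CPM on Day42 and fell by 4.56 ± 1.32 (179 ± 23.1 to 7.62 ± 7.45 CPM, edgeR adjusted p = 0.0354). The test was no longer passed without any 1 Day0 or Day21 library and without Day42 replicate 1 (edgeR adjusted p from 0.0568 to 0.0825). Nor was it passed with Day21 and Day42 fitted alone (edgeR adjusted p = 0.0972) or with the replicate block. BUB1B, the checkpoint protein BUBR1, had raw counts of 0, 354 and 0 on Day42 and did not pass (edgeR adjusted p = 0.202). Its reads could also be shared with the readthrough gene BUB1B-PAK6.

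BUB3 stood apart from the other 45 genes. This WD-repeat protein, which recruits BUB1 and BUB1B to kinetochores, had 239, 341 and 439.5 CPM on Day21 and 373, 262 and 258 CPM on Day42. The 2 days overlapped, with replicate 3 the highest on Day21 and replicate 1 the highest on Day42. The difference of −0.19 ± 0.37 did not pass (339.9 ± 100.2 against 297.5 ± 65.0 CPM, edgeR adjusted p = 0.785), and it was above 0 on the FPKM scale (0.46 and 0.48 with pseudocounts of 1 and 0.1) and without Day21 replicate 3 (0.02). On Day0 BUB3 had 732, 994 and 375 CPM, and it fell by 1.24 ± 0.38 from Day0 to Day42 (edgeR adjusted p = 0.0372), with Day42 replicate 1 just below Day0 replicate 3. Of 17 alternatives 10 ended that call, including the fits without Day0 replicates 1 and 2, Day21 replicate 2, and Day42 replicates 2 and 3 (edgeR adjusted p = 0.0926, 0.123, 0.0632, 0.0928 and 0.0678). In FPKM, BUB3 was the fifth of the 46 on Day0 (58.2 FPKM), the thirteenth on Day21 (29.4 FPKM) and the highest on Day42 (40.9 FPKM).

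**Figure D4:**
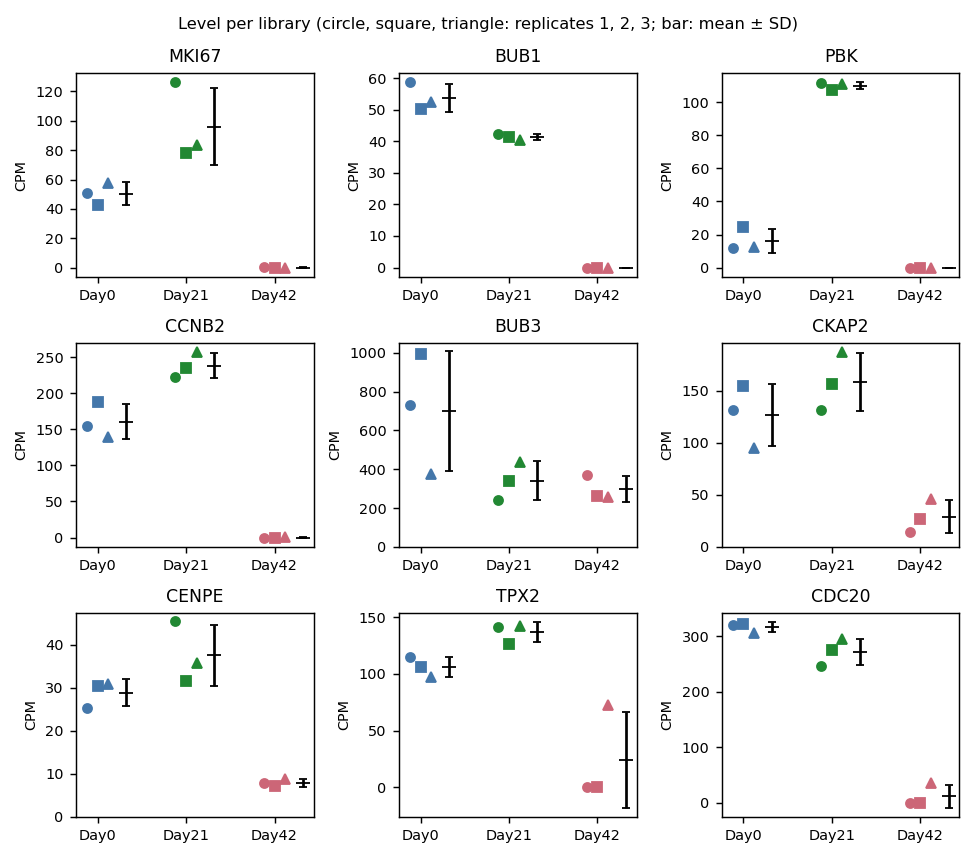
CPM (y axis, linear) of 9 of the genes in each library (points, with circles, squares and triangles for replicates 1, 2 and 3) by day, with the mean ± SD as a bar. MKI67, BUB1, PBK and CCNB2 lie at or near 0 on Day42, BUB3 overlaps its Day21 range, CKAP2 and CENPE keep a lower level in all 3 libraries, and TPX2 and CDC20 are raised in Day42 replicate 3 alone.

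Of the 3 anaphase and ubiquitin genes, 2 fell in both Day42 comparisons. UBE2C had 395, 449.6 and 488 CPM on Day21 and 6.70, 1.20 and 0 CPM on Day42, and fell by 7.40 ± 1.70 (edgeR adjusted p = 0.0133). The highest Day42 library, replicate 1, held 1.51% of the Day21 mean. PTTG1 went from 729 ± 276 to 5.48 ± 5.85 CPM and fell by 7.06 ± 1.47 (edgeR adjusted p = 0.00886). CDC20, the activator that the checkpoint restrains, had 247, 275 and 294 CPM on Day21 and raw counts of 0, 0 and 2967 on Day42. Replicate 3 alone held it, at 35.2 CPM or 12.9% of the Day21 mean, and the change of −4.54 ± 2.33 did not pass (edgeR adjusted p = 0.2). It passed without Day42 replicate 3 (edgeR adjusted p = 2.49e-05).

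Of the 5 genes of the chromosomal passenger complex and its centromeric partner shugoshin, 4 fell. INCENP, the scaffold of the complex, had 19.6, 13.1 and 10.5 CPM on Day21 and 0 counts in each Day42 library, at least 98.6-fold lower (edgeR adjusted p = 0.00244). AURKB, its kinase, had raw counts of 0, 7 and 4 on Day42 and was at least 1023-fold below its Day21 mean of 149 ± 10.1 CPM (edgeR adjusted p = 0.000303), and BIRC5, survivin, fell by 8.65 ± 1.14 (edgeR adjusted p = 0.00177). CDCA8, borealin, had 132, 117 and 102 CPM on Day21 and 7.97, 0 and 0 CPM on Day42. Replicate 1 alone held it, and the change of −5.46 ± 2.23 did not pass (edgeR adjusted p = 0.111), although it did without that library (edgeR adjusted p = 0.000427). SGO1, which protects cohesion at centromeres, had raw counts of 0, 127 and 0 on Day42 and fell by 6.85 ± 2.06 (edgeR adjusted p = 0.0397). The call was lost without any 1 Day0 or Day21 library (edgeR adjusted p from 0.0666 to 0.0894), and the change was −14.80 without Day42 replicate 2. It was also lost with Day21 and Day42 fitted alone (edgeR adjusted p = 0.126) and with the replicate block.

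Of the 8 kinetochore and centromere genes, 7 fell, and 4 of these (NUF2, SPC25, CENPA and OIP5, a loading factor for CENPA) were at 0 throughout Day42. SPC25, of the NDC80 complex that grips microtubules, had 66.2, 83.0 and 87.8 CPM on Day21 and was at least 542-fold lower on Day42 (edgeR adjusted p = 0.00016). NUF2, OIP5 and CENPA were at least 288-fold, 400-fold and 212-fold lower. NDC80 had raw counts of 0, 128 and 0 on Day42, and its fall of 6.96 ± 2.05 (edgeR adjusted p = 0.0371) was lost without any 1 Day0 or Day21 library (edgeR adjusted p from 0.0649 to 0.0848) and was 14.92 without Day42 replicate 2. The NDC80 call was also lost with Day21 and Day42 fitted alone (edgeR adjusted p = 0.119) and with the replicate block. SPC24, its partner, had 0, 146 and 0 counts and did not pass (edgeR adjusted p = 0.0617).

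CENPE kept a similar level in the 3 Day42 libraries. This kinesin-like motor, which moves chromosomes to the spindle equator, had 25.2, 30.5 and 30.9 CPM in the Day0 libraries, 45.5, 31.5 and 35.7 CPM in those of Day21, and 7.82, 7.09 and 8.83 CPM in those of Day42. The 3 Day42 libraries kept 20.8%, 18.9% and 23.5% of the Day21 mean and did not overlap the earlier days. CENPE fell by 2.25 ± 0.38 from Day21 and by 1.87 ± 0.38 from Day0 (edgeR adjusted p = 0.00406 and 0.00662). On the log2(FPKM + 1) scale both changes were smaller than the fold set for a call. The call against Day0 was also lost on log2(FPKM + 0.1) and with Day0 and Day42 fitted alone (edgeR adjusted p = 0.0555).

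Of the 6 spindle assembly genes, 3 fell. ASPM had 26.8, 15.0 and 12.3 CPM on Day21 and 0 counts in each Day42 library, at least 123-fold lower (edgeR adjusted p = 0.000696). NUSAP1, which bundles microtubules near chromosomes, had raw counts of 5, 5 and 0 on Day42 and was at least 1683-fold lower (edgeR adjusted p = 0.000242), with reads that could be shared with AC087721.2. CKAP2, a microtubule-associated protein of the spindle poles, had 132, 156 and 187 CPM on Day21 and 14.2, 26.8 and 45.9 CPM on Day42. All 3 Day42 libraries were below the earlier days, at 8.97%, 17.0% and 29.0% of the Day21 mean, and replicate 3 was the highest. CKAP2 fell by 2.45 ± 0.44 from Day21 and by 2.13 ± 0.44 from Day0 (edgeR adjusted p = 0.00501 and 0.00708).

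TPX2, which targets AURKA to the spindle and was chosen after its values were seen, had 141, 127 and 142 CPM on Day21 and 0, 0.189 and 72.8 CPM on Day42. Day42 replicate 3 held 6139 counts, 53.3% of the Day21 mean, while replicates 1 and 2 had 0 and 16 counts. The change of −2.49 ± 2.05 did not pass (edgeR adjusted p = 0.451), and it was −10.44 without Day42 replicate 3 (edgeR adjusted p = 0.000432). HMMR and DLGAP5, 2 further spindle proteins, had the opposite pattern, with 527 and 652 counts in Day42 replicate 1 and 0 in replicates 2 and 3.

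Of the 4 midzone and cytokinesis genes, 2 fell. ANLN, the scaffold of the contractile ring, had 31.9, 23.1 and 23.1 CPM on Day21 and 0 counts in each Day42 library, at least 179-fold lower (edgeR adjusted p = 0.000425). ECT2, which activates RhoA at the cell equator, had raw counts of 0, 5 and 0 and was at least 175-fold lower (edgeR adjusted p = 0.00239). PRC1 had 116, 94.3 and 95.7 CPM on Day21 and 23.4, 4.64 and 0 CPM on Day42. Replicate 1 kept 22.9% of the Day21 mean, and the change of −3.45 ± 1.67 did not pass (edgeR adjusted p = 0.174), although it did without Day42 replicate 3 (edgeR adjusted p = 0.011). RACGAP1, the partner of ECT2, had 662, 0 and 0 counts on Day42 and did not pass (edgeR adjusted p = 0.232).

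Both genes of mitotic chromosomes fell. MKI67 had raw counts of 8686, 4271 and 4624 on Day21 and 8, 4 and 4 on Day42, under the limit in each library and at most 0.107% of the Day21 mean. It was at least 657-fold lower than on Day21 and at least 345-fold lower than on Day0 (edgeR adjusted p = 0.0001 and 5.91e-05). TOP2A, the topoisomerase that untangles sister chromatids, had 184, 158 and 159 CPM on Day21 and 0.154, 1.31 and 0.0237 CPM on Day42. Replicate 2 was the highest at 0.783% of the Day21 mean, and TOP2A fell by 8.39 ± 1.35 (edgeR adjusted p = 0.00337).

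What remained on Day42 differed from library to library. Of the 46 genes, 11 had 0 counts in each Day42 library (17.0% of all tested genes did), 19 were at or under 12 counts in each (21.8% of all tested genes), and 3 were above 12 in each (35.8% of all tested genes). The other 24 were above 12 counts in some libraries only. These were replicate 1 alone for 8 genes, replicates 1 and 2 for 8, replicate 2 alone for 5, replicates 1 and 3 for CENPF, replicates 2 and 3 for TPX2, and replicate 3 alone for CDC20. Summed without BUB3, the libraries held 159, 99.1 and 164 CPM, so replicate 3 had the fewest genes detected and the highest sum, through TPX2, CKAP2 and CDC20.

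**Figure D5:**
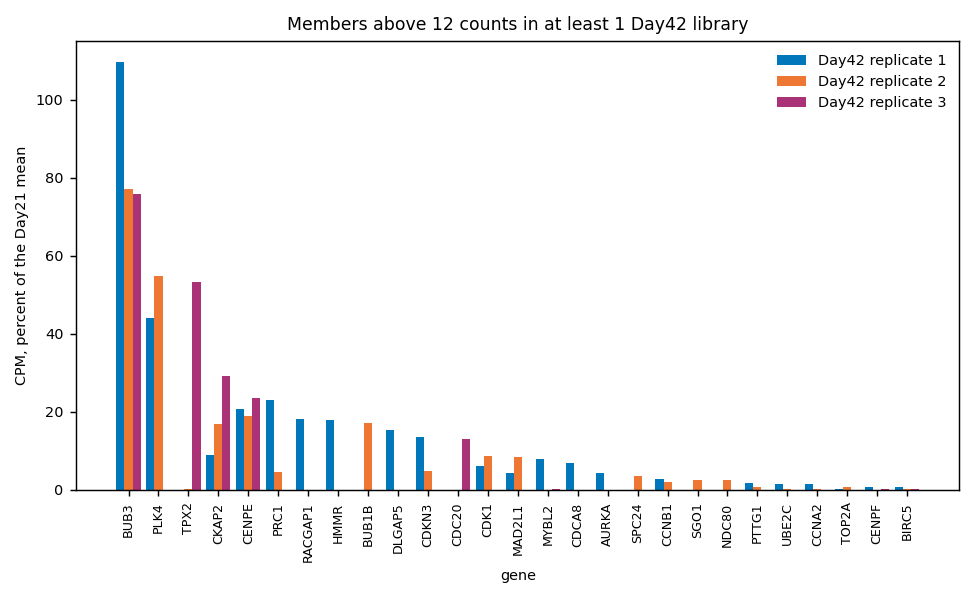
CPM in each Day42 library as percent of the mean Day21 CPM (y axis) for the genes above 12 counts in at least 1 Day42 library (x axis, ordered by their highest bar). Bars of 1 colour belong to 1 library. BUB3, CKAP2 and CENPE have a bar in each library, PLK4 in replicates 1 and 2 (44.1% and 54.8%) and TPX2 mainly in replicate 3 (53.3%).

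Other genes of the same machinery are given from lists put together by complex, with earlier results of these data known. From Day21 to Day42 edgeR called 19.7% of all tested genes lower and 6.52% higher. Its counts of lower genes in the kinetochore, anaphase-promoting and cohesin lists were near that share. Each Day42 library was below each Day21 library for 22, 5 and 11 genes of these lists, against 34.7% of all genes. Of 33 other kinetochore and centromere genes edgeR called 7 lower and 0 higher, with a median change of −2.74 (−0.54 over all tested genes). DESeq2 called 12 lower and 0 higher (25.3% and 10.5% of all genes). At an unadjusted p under 0.05 edgeR had 13 lower and 0 higher, beside 5348 and 2099 of all 20156 tested genes. Among the 7 called lower were CENPM, a centromere protein, and HJURP, the chaperone of CENPA. These 2 genes fell from 85.7 ± 26.6 and 41.0 ± 4.69 CPM to raw counts of 2, 0 and 0 and of 0, 0 and 1 (edgeR adjusted p = 0.000303 and 0.00033). Of 17 subunits and partners of the anaphase-promoting complex 3 were lower and 1 higher, with a median of −0.35, near that of all genes. CDC16, a core subunit, rose from 23.3 ± 0.801 to 119 ± 60.4 CPM, by 2.36 ± 0.44 (edgeR adjusted p = 0.00564), with 89.2, 79.8 and 189 CPM in the 3 Day42 libraries. ANAPC11, its catalytic RING subunit, and UBE2S, which extends ubiquitin chains, fell, with changes of −1.92 ± 0.45 and −1.87 ± 0.34, and kept 26.5% and 27.3% of their Day21 means (edgeR adjusted p = 0.014 and 0.00487). Reads of ANAPC11 could be shared with NPB, and those of CCND2 below with AC008012.1.

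Of 19 cohesin, separase and condensin genes 4 were lower and 0 higher (median −1.55). NCAPH, a condensin subunit, and ESPL1, the separase that PTTG1 inhibits, were at 0 throughout Day42, at least 278-fold and 21.9-fold lower, and CDCA5, sororin, with 0, 0 and 4 counts, was at least 212-fold lower (edgeR adjusted p = 0.000242, 0.00215 and 0.00169). Of 19 genes of the MuvB complex, the RB family and the E2F factors 7 were lower and 0 higher (median −1.18), among them E2F1, at least 146-fold lower, MYBL1, at least 19.3-fold lower, and E2F2, with 0, 0 and 4 counts, at least 29.1-fold lower (edgeR adjusted p = 0.00261, 0.00236 and 0.0101). Of 12 cyclins and kinases of the earlier cell cycle 4 were lower and 1 higher (median −3.15). CCNE2, cyclin E2, was at least 132-fold lower, and the D cyclins CCND2 and CCND1 fell, with changes of −7.29 ± 1.38 and −4.91 ± 1.39 (edgeR adjusted p = 0.000791, 0.00583 and 0.032). CCND1 had 11.3, 35.3 and 0.142 CPM on Day42, and its call was lost with Day21 and Day42 fitted alone (edgeR adjusted p = 0.0897). Of 12 DNA replication licensing genes 8 were lower and 0 higher (median −4.39), with ORC1 and CDT1 at least 92.0-fold and 89.8-fold lower and CDC45, with 0, 4 and 0 counts, at least 311-fold lower (edgeR adjusted p = 0.000839, 0.00158 and 0.00132). From Day0 to Day21, edgeR called 0 lower and 0 higher in each of these 6 lists. At an unadjusted p under 0.05 it had 2 higher, both in the list of earlier cyclins and kinases, and 0 lower. Over all 20156 tested genes it had 1617 higher and 1781 lower. DESeq2 called 3 higher and 0 lower, 1 each among the E2F, earlier cyclin and licensing genes, where it called 6.89% and 7.75% of all genes. With Day0 and Day21 fitted alone, edgeR called 12.6% of all genes lower and 13.0% higher. In that fit 3 kinetochore genes were lower and 0 higher. The counts were 0 and 0 in the anaphase-promoting list, 0 and 1 for cohesin, and 1 and 2 for E2F. They were 2 and 3 for earlier cyclins, and 3 and 1 for licensing. CCND1, chosen after its values were seen, rose by 3.59 there (edgeR adjusted p = 0.000165, and 0.194 with all libraries).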

How the data were processed

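The authors deposited 1 table that holds, per the file headers, a raw count and an FPKM value for each gene in each library. In the submitters' processing notes, cutadapt 1.9, FastQC and GRCh38 are listed without their roles. Aligner, counting program, strand setting and annotation: not given in the sources used here. Libraries were grouped by the labels, and 0 columns were unmatched. Genes were kept by filterByExpr (20156) and scaled by TMM. In R 4.3.3, edgeR 4.0.16 fitted its quasi-likelihood model to the 9 libraries together, each day having its own mean, which left 6 residual degrees of freedom beside a prior of 2.42. Calls needed a Benjamini-Hochberg adjusted p under 0.05 over all tested genes and a log2 fold change of at least 1 in size. The script was tested on simulated data. Genes at or under the 12-count limit in every Day42 library have lower bounds on folds, set against that limit's mean over those libraries. These bounds cover counting error only. The members and lists were chosen with earlier results of these data known.

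Genes given per library are MKI67, BUB1, PBK and, in each role group, those with the largest and the smallest change between Day42 and Day21, and other members given so were chosen after their values were seen. In each further list, up to 3 called genes with the largest change are named, and 1 such gene is not reported here. Alternatives were DESeq2 1.42.0, median-of-ratios scaling, no filter, only the 2 days compared, a replicate block, limma 3.58.1 on log2(FPKM + 1) and log2(FPKM + 0.1) (genes reaching an FPKM of 1 in 3 libraries), voom with sample quality weights, and leaving out each library. DESeq2 gave no adjusted p for 14 of the 46 genes. Promoter sequences are RefSeq's, and exons GENCODE's. Besides those named in the results, FOXM1, CCNA2, CDC25C, PLK1, MAD2L1, SGO1, NUF2, SPC24, OIP5, HMMR, PRC1, ANLN and RACGAP1 overlap exons on the other strand. PTTG1, CDC20, AURKA, UBE2C, NEK2, MKI67, BUB1, BUB3, CCNB2, SGO1, DLGAP5, CKAP2 and RACGAP1 have annotated near copies.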

Additional observations from a re-analysis of the deposited data

How the results depend on the processing

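The counts of lower genes, 31 between Day42 and Day21 and 34 between Day42 and Day0, moved by less than 1.5 times under each alternative run, and 27 in each comparison held in every alternative that gave an adjusted p. The count of genes higher on Day21 than on Day0, 1 with all libraries, was 0 with no count filter, 2 with only the 2 days compared and 3 with voom sample weights, and leaving out 1 library gave 0 to 1. Same-numbered libraries deviated together by correlations of −0.2251 to 0.0266, so the numbers were not taken as pairs. With the replicate block, edgeR called 28 lower against Day21, 29 lower against Day0 and 0 higher on Day21 than on Day0. The shares of all genes called in that fit are not given here. On the log2(FPKM + 1) scale the median of all genes between Day42 and Day21 was 0.02 instead of −0.54.

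Differences near 0 between Day21 and Day0 changed sign, none of them called. On the FPKM scales (pseudocounts 1 and 0.1) MYBL2 was 0.19 and 0.20, CDKN3 0.0069 and 0.0082, NDC80 0.0169 and 0.0188, and FOXM1 0.0119 (0.1 alone). With voom, MYBL2 was 0.199, NDC80 0.0011, PLK1 0.0204, PLK4 −0.0685 and ASPM −0.097. With the block, CDKN3 was 0.26 and NDC80 0.187. Leaving out 1 library gave −0.519 to 0.327 for FOXM1, −0.463 to 0.808 for MYBL2, −0.192 to 0.0785 for CDK1, −0.401 to 0.243 for CDKN3, −0.377 to 0.0987 for PLK1, −0.045 to 0.234 for PLK4, −0.402 to 0.0312 for MAD2L1, −0.206 to 0.0303 for AURKB, −0.0739 to 0.531 for BIRC5, −0.17 to 0.171 for NDC80, −0.129 to 0.254 for SPC25 and −0.358 to 0.286 for ASPM. BUB3 between Day42 and Day21 was 0.465 and 0.477 on the FPKM scales, and −0.34 to 0.0233 without 1 library. The cause was not tested. For genes at or under 12 counts on Day42 only a least fall is given, and it covers counting error only. It does not cover differences between Day42 libraries, such as those of CDC20 and TPX2.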
